A study of Homo sapiens with 6 samples.

Results

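The genes described here are 10 genes of the circadian clock, *PER1*, *PER2*, *PER3*, *CRY1*, *CRY2*, *CLOCK*, *NR1D1*, *NR1D2*, *DBP* and *BHLHE40*. They were selected by symbol, as the rows of the deposited count table that carry these symbols, and all 10 were found among 31831 genes. HK-2 cells, which are an immortalized cell line made from the proximal tubule of a human kidney, were transfected with a control lentivirus (HG-NC) or with a lentivirus that overexpresses hnRNP-F (HG-OE), an RNA-binding protein. The labels call the control a control plasmid. Both groups were kept in 30 mM glucose for 72 h, so that high glucose is shared by all 6 libraries. Each group has 3 RNA-seq libraries, from parallel wells of 1 cell line, and p-values therefore measure the spread between such wells. Neither the promoter of the vector nor the hour of harvest is given in the sources used here. Each culture was read at 1 time, without a statement of clock synchronization, so that a changed level of a clock gene and a shifted phase of its rhythm cannot be told apart.

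The mammalian clock is a feedback loop of transcription. CLOCK or its relative NPAS2 pairs with BMAL1 and activates genes with E-box elements, among them the *PER* and *CRY* genes, whose proteins return to the nucleus and repress CLOCK-BMAL1, while NR1D1 and NR1D2 (REV-ERB alpha and beta) repress *BMAL1* against the ROR activators. The PAR bZIP factors DBP, TEF and HLF carry the rhythm to genes with D-box elements, and BHLHE40 and BHLHE41 (DEC1 and DEC2) repress at E-boxes. In the kidney the clock is known to set daily rhythms of sodium transport and filtration.

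Promoter sequences of 4 members are shown because 3 of them had the largest falls of the 10 and the remaining one rose. They are RefSeq sequences of build GRCh38.p14, from 250 bases before to 50 bases after the RefSeq start, read 5' to 3' along the gene. Capitals mark the E-box CACGTG, the E-prime box CACGTT or a D-box (TTATGTAA or TTACGTAA), each searched on both strands. The windows are chr17:40100540-40100839 (minus strand) for *NR1D1*, chr2:238288561-238288860 (minus strand) for *PER2*, chr1:7784041-7784340 (plus strand) for *PER3* and chr3:4979187-4979486 (plus strand) for *BHLHE40*.
NR1D1: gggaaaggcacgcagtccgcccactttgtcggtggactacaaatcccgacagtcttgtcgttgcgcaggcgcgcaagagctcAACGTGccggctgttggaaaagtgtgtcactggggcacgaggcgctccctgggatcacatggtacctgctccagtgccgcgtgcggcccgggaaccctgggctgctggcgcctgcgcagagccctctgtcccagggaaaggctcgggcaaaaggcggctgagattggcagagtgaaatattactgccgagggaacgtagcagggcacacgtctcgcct
PER2: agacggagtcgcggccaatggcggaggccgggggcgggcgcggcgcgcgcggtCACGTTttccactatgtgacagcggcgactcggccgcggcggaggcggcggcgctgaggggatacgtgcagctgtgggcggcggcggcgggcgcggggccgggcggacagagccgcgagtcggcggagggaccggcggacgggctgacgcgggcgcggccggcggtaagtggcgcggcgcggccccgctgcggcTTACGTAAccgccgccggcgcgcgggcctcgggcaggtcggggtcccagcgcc
PER3: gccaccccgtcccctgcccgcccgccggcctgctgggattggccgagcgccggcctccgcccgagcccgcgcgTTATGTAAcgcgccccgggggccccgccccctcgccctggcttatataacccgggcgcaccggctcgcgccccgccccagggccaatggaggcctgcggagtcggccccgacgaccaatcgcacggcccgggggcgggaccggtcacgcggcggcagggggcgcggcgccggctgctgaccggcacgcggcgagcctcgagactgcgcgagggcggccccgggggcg
BHLHE40: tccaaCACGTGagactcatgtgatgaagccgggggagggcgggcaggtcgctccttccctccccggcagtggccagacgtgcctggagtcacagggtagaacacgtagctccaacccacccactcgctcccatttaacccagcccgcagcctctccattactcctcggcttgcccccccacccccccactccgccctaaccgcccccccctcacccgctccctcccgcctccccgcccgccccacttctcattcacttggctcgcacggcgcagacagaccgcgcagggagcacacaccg
The *NR1D1* window holds an E-prime box on the other strand, printed as its reverse complement, that begins 168 bases upstream of the start. The *PER2* window holds an E-prime box 197 bases upstream and a D-box that begins 3 bases upstream and spans the start. The *PER3* window holds a D-box 177 bases upstream. The *BHLHE40* window holds an E-box 245 bases upstream.

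All 10 members matched a RefSeq window. The E-box was found in 2 of them, *BHLHE40* and *PER1* (173 bases upstream), and in 7.43% of 27305 such windows of all genes. The E-prime box was found in 3, *PER2*, *NR1D1* and *CRY1* (89 bases upstream), against 5.27% of all windows. The D-box was found in 2, *PER2* and *PER3*, against 1.05%. None of the 10 windows held the RORE core TAGGTCA or the element TGACGTCA, which 1.87% and 1.98% of all windows hold. Of the other clock genes, *CIART* held 3 E-boxes, 129, 71 and 57 bases upstream, where 0.696% of all windows hold 2 or more. *BHLHE41* and *TEF* held 1 E-box each, 48 and 195 bases upstream. *HLF* held TGACGTCA, which begins 7 bases upstream and reaches across the start, and *BMAL1* held the RORE core 31 bases after the start. These matches describe the letters of a short window, and binding was not measured.

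The libraries held 25507595 to 29444841 counted read pairs, and 17142 genes passed the filter on low counts, all 10 members among them. *HNRNPF* was 304, 319 and 311 CPM (counts scaled to library size by the TMM method) in HG-NC replicates 1, 2 and 3 and 430, 452 and 423 CPM in HG-OE, which is a log2 fold change of 0.48 (SE, the standard error, 0.0388, and adjusted p = 2.80e-07 by edgeR's quasi-likelihood test). Transcripts of the construct and of the cells' own gene were not told apart. The summed level of 12 proximal tubule markers was 817 to 881 CPM in HG-NC and 667 to 742 CPM in HG-OE. It came mostly from *PAX8* and *CDH2*, while *LRP2* and *AQP1* stayed under 1 CPM in every library. HG-OE replicate 3 stood apart. Its log2 levels correlated with those of the other HG-OE libraries at r = 0.987, where those correlated with each other at r = 0.995. A list of 8 squamous markers summed to 80.0 CPM in it and to 6.43 to 8.97 CPM in the other 5 libraries, and a list of 9 hepatocyte markers to 734 CPM against 463 and 464 CPM in HG-OE replicates 1 and 2 and 267 to 278 CPM in HG-NC. In the other libraries nearly all of that sum came from 1 abundant marker, which was not higher in HG-OE replicate 3 than in HG-OE replicates 1 and 2, while *ALB* was 149 CPM and *AFP* 63.7 CPM in HG-OE replicate 3 and at most 2.79 and 1.70 CPM elsewhere. The 2.79 CPM of *ALB* was that of HG-NC replicate 3. Counts in HG-NC replicates 1, 2 and 3 were 4, 1 and 78 for *ALB*, 5, 0 and 53 for *APOB* and 33, 46 and 44 for *AFP*. Epithelial markers (6) gave 1830 CPM in HG-OE replicate 3 against 1180 and 1210 CPM in the other HG-OE libraries and 885 to 900 CPM in HG-NC. That rise came mostly from *KRT8* (293 to 299 CPM in HG-NC, 629 to 983 CPM in HG-OE) and *KRT18* (205 to 207 and 278 to 488 CPM), while *EPCAM* went from 101 to 111 CPM down to 67.0 to 79.2 CPM and *KRT19* from 222 to 238 CPM down to 138 to 191 CPM. Leukocyte markers (5) gave 16.1 CPM in HG-OE replicate 3 against 3.61 to 5.19 CPM in the other libraries. Fibroblast markers (5) gave 35.4 to 38.2 CPM in HG-NC and 29.6 to 39.4 CPM in HG-OE, endothelial markers (4) at most 1.38 CPM and distal nephron markers (5) at most 1.60 CPM in any library, and *UMOD*, *AQP2* and *KDR* were not among the genes of the count table used here. The part of such RNA in the clock results was not tested, and the counts are given below with and without HG-OE replicate 3.

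Most of the 10 clock genes were lower in HG-OE. Of the 10 members, 8 had an adjusted p under 0.05 (edgeR quasi-likelihood test, Benjamini-Hochberg over 17142 genes), where 51.8% of all genes tested had one. Of these, 7 were lower in HG-OE (*PER1*, *PER2*, *PER3*, *NR1D1*, *NR1D2*, *CLOCK* and *DBP*) and 1 was higher (*BHLHE40*), and each direction took 25.9% of all genes. *CRY1* and *CRY2* did not pass. A fall of at least 2-fold was met by 3 members, *NR1D1*, *PER2* and *PER3*, against 2.13% of all genes. No member rose 2-fold, which 3.69% of all genes did, and 5.82% of all genes changed 2-fold in one direction or the other. The libraries of both groups did not overlap for 8 members, against 59.0% of all genes (29.4% lower and 29.6% higher). The median log2 fold change of the 10 was -0.39, and that of all genes was 0.011. Without HG-OE replicate 3, 6 members were lower and 1 was higher at the same threshold, against 27.2% of all genes lower, the same 3 genes were called at 2-fold lower, against 2.63% of all genes, and the median was -0.36. In bulk RNA, fewer cells that express a gene and less of its RNA per cell cannot be told apart.

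**Figure D1:**
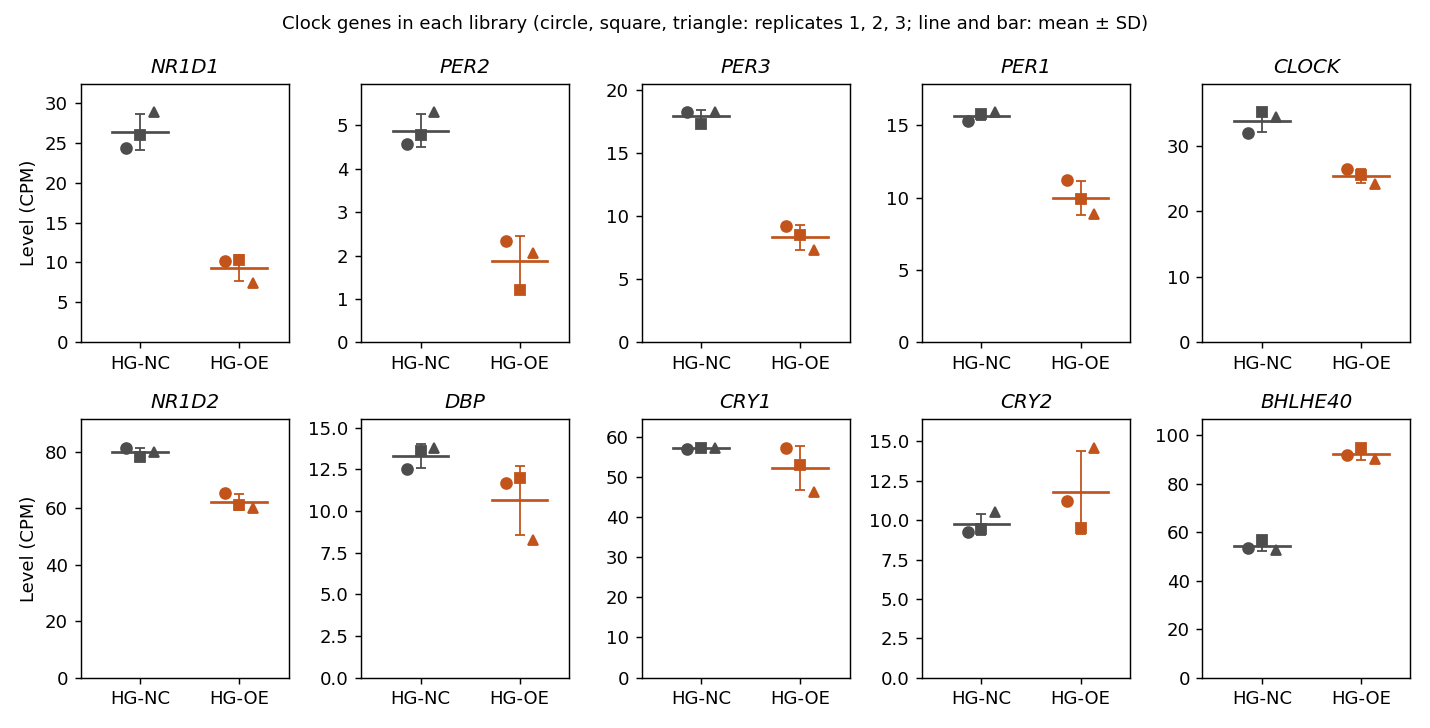
Level of each of the 10 clock genes in CPM (linear axes from 0, with a scale of its own for each gene) in the 3 HG-NC and 3 HG-OE libraries, where symbols mark replicates 1, 2 and 3, lines the means and bars the SD. For 7 genes every HG-OE point is below every HG-NC point, for *BHLHE40* every HG-OE point is above, and for *CRY1* and *CRY2* the groups overlap.

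*NR1D1* (ENSG00000126368.6, chr17:40092793-40100589 of GRCh38, minus strand) encodes REV-ERB alpha, a haem-binding nuclear receptor that represses *BMAL1*. Its level was 24.3, 26.0 and 28.8 CPM in HG-NC replicates 1, 2 and 3 and 10.2, 10.3 and 7.44 CPM in HG-OE replicates 1, 2 and 3. Every HG-OE library was below every HG-NC library, and HG-OE replicate 3 was the lowest. The means were 26.4 ± 2.27 and 9.33 ± 1.63 CPM (SD, n = 3), a log2 fold change of -1.50 (95% interval -1.75 to -1.26, adjusted p = 1.62e-07, edgeR), or 2.83 times lower. Its size of change, in either direction, exceeded that of 97.5% of all genes tested. Over the 6 fits that each omit 1 library, it ranged from -1.58 to -1.36.

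*NR1D2* encodes REV-ERB beta, the second receptor of this pair. It was 81.4, 78.3 and 79.8 CPM in HG-NC and 65.4, 61.3 and 60.0 CPM in HG-OE. The groups did not overlap, but the distance was smaller than that of *NR1D1*, with a log2 fold change of -0.36 (SE 0.0465, edgeR adjusted p = 2.25e-05). Within a library, the log2 ratio of *NR1D1* to *NR1D2* was -1.74, -1.59 and -1.47 in HG-NC and -2.67, -2.57 and -3.00 in HG-OE. The ratios of the 2 groups did not overlap. The ratio fell by 1.15 on the log2 scale (SE 0.153, exact permutation p = 0.1, two-sided, which is as low as 3 against 3 can give, and 0.14 after adjustment over 7 pairs).

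The 3 *PER* genes encode the PERIOD proteins, which join CRY proteins in the complex that represses CLOCK-BMAL1. *PER2* (ENSG00000132326.12, chr2:238244044-238290102, minus strand) was the scarcest of the 10 members. Its counts were 116, 129 and 148 in HG-NC and 68, 35 and 60 in HG-OE, or 4.56, 4.77 and 5.30 CPM and 2.34, 1.20 and 2.05 CPM. The groups did not overlap, and HG-OE replicate 2 was the lowest. The log2 fold change was -1.38 (SE 0.210, edgeR adjusted p = 9.05e-05), or 2.61 times lower, and fits that omit 1 library gave -1.58 to -1.15. *PER3* (ENSG00000049246.15, chr1:7784291-7845177, plus strand) is the member of the family that is least needed for the rhythm itself. It was 18.2, 17.3 and 18.2 CPM in HG-NC and 9.20, 8.48 and 7.27 CPM in HG-OE. All 3 HG-OE libraries were far below the HG-NC libraries, which lay close together. This gave a log2 fold change of -1.11 (SE 0.0957, edgeR adjusted p = 5.53e-07), or 2.15 times lower, with a range of -1.19 to -1.02 over the libraries left out.

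*PER1*, the family member that responds to glucocorticoids and other acute signals, was 15.3, 15.8 and 15.9 CPM in HG-NC and 11.2, 9.89 and 8.88 CPM in HG-OE. The groups did not overlap. The log2 fold change of -0.65 (SE 0.0946, edgeR adjusted p = 6.33e-05) was under the 2-fold threshold. The log2 ratio of *PER1* to *PER3* was -0.25, -0.13 and -0.20 in HG-NC and 0.28, 0.22 and 0.29 in HG-OE, so that *PER1* had the lower CPM of the pair in each control library and the higher one in each HG-OE library. The ratio rose by 0.46 (SE 0.0392, exact permutation p = 0.1, 0.14 adjusted over 7 pairs). The ratio of *PER1* to *PER2* rose by 0.75 (SE 0.281, with the same p-values), from 1.67 ± 0.0864 to 2.42 ± 0.479 (SD, n = 3), and by 0.48 without HG-OE replicate 2. *PER2* and *PER3* were not told apart, as their ratio changed by -0.29 (SE 0.303, exact permutation p = 0.6) with overlapping groups.

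*CRY1* and *CRY2* encode the cryptochromes, which bind CLOCK-BMAL1 directly. *CRY1* was 57.0, 57.2 and 57.1 CPM in HG-NC and 57.2, 53.0 and 46.3 CPM in HG-OE. The 3 controls were almost equal, and the HG-OE libraries reached from their level downwards. This gave a log2 fold change of -0.13 (95% interval -0.27 to 0.01, adjusted p = 0.116, edgeR), and -0.05 without HG-OE replicate 3. It was -0.20 without HG-OE replicate 1 and then passed (adjusted p = 0.0174, edgeR, with 0.00511 to 0.450 over 15 alternatives). *CRY2* was 9.28, 9.42 and 10.5 CPM in HG-NC and 11.2, 9.48 and 14.6 CPM in HG-OE. HG-OE replicate 3 was the highest and HG-OE replicate 2 lay within the controls. The log2 fold change was 0.28 (95% interval -0.02 to 0.57, adjusted p = 0.107, edgeR), and 0.09 without HG-OE replicate 3. It was 0.41 without HG-OE replicate 2 and then passed (adjusted p = 0.0186, edgeR, with 0.0186 to 0.506 over 15 alternatives). Neither interval from all 6 libraries reaches a 2-fold change, and both leave room for a smaller one. The ratio of *CRY1* to *CRY2* changed by -0.39 (exact permutation p = 0.2, overlapping groups) and by -0.14 without HG-OE replicate 3.

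*BHLHE40* (ENSG00000134107.5, chr3:4979437-4985323, plus strand) encodes DEC1, a basic helix-loop-helix repressor that competes at E-boxes and also answers to hypoxia and cytokines. It was the one member that rose. Its level was 53.6, 56.7 and 52.8 CPM in HG-NC and 92.0, 94.8 and 90.1 CPM in HG-OE, with a narrow spread in both groups and no overlap. The rise was of 0.76 (SE 0.0458, edgeR adjusted p = 2.04e-08), or 1.70 times higher. Its paralogue *BHLHE41* (DEC2), which is outside the 10, went the other way, from 68.9, 59.8 and 60.5 CPM to 41.6, 42.4 and 42.2 CPM, a log2 fold change of -0.58 (adjusted p = 2.08e-06, edgeR). The log2 ratio of *BHLHE40* to *BHLHE41* was -0.36, -0.08 and -0.20 in HG-NC and 1.14, 1.16 and 1.09 in HG-OE. It thus changed sign between the groups in every library, by 1.34 (SE 0.0850, exact permutation p = 0.1, 0.14 adjusted over 7 pairs), the largest change among the 7 ratios. This ranking does not allow for the genes around each locus. With the median of the genes within 10 Mb removed, *BHLHE40* was at 0.24 and *BHLHE41* at -0.54. *NR1D1* and *CLOCK* were then further apart, at -1.25 and -0.27.

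**Figure D2:**
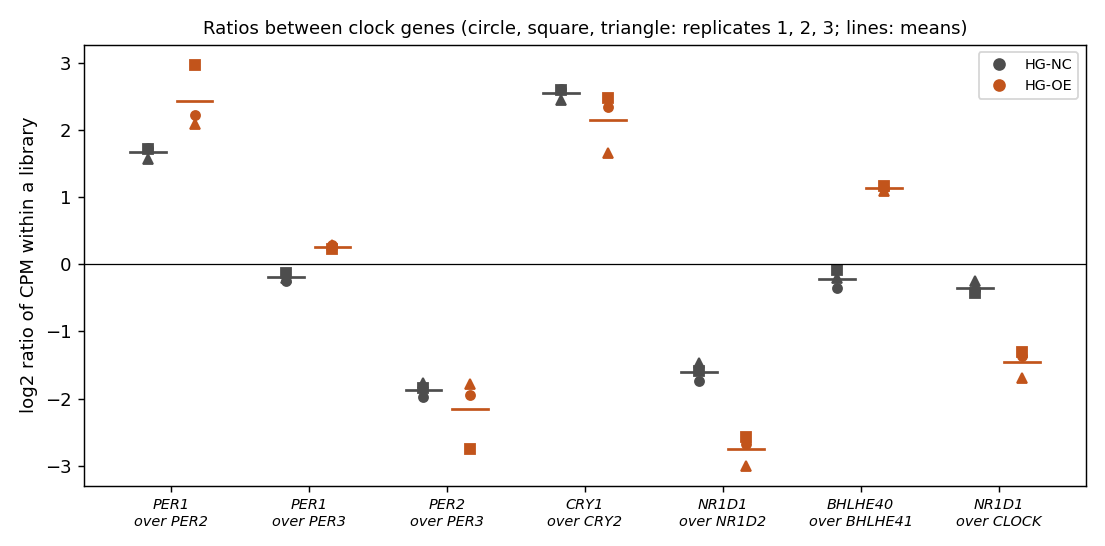
Log2 ratio of the CPM values of 2 clock genes within each library (vertical axis, no unit) for 7 pairs, with symbols for replicates 1, 2 and 3 and lines for the group means. The ratio of *BHLHE40* to *BHLHE41* goes from a mean of -0.21 in HG-NC to 1.13 in HG-OE, and the groups overlap for *PER2* over *PER3* and for *CRY1* over *CRY2*.

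*CLOCK* is the only member in the activator arm and encodes the histone acetyltransferase partner of BMAL1. It was 31.9, 35.1 and 34.4 CPM in HG-NC and 26.4, 25.5 and 24.2 CPM in HG-OE, without overlap. *CLOCK* had a log2 fold change of -0.42 (SE 0.0613, edgeR adjusted p = 7.14e-05). The ratio of *NR1D1* to *CLOCK*, a repressor over an activator, fell by 1.09 on the log2 scale, from -0.36 ± 0.0911 to -1.45 ± 0.210 (SD, n = 3, exact permutation p = 0.1, 0.14 adjusted over 7 pairs). *BMAL1*, which the count table lists as *ARNTL*, was 18.2, 18.1 and 19.0 CPM in HG-NC and 16.8, 15.9 and 13.8 CPM in HG-OE. It changed by -0.25 on the log2 scale (SE 0.0848, edgeR adjusted p = 0.0235), and -0.17 without HG-OE replicate 3 (adjusted p = 0.0747, over all 15 alternatives 0.00943 to 0.0954). Of the remaining activators, *BMAL2* (listed as *ARNTL2*) had a log2 fold change of -0.00 (95% interval -0.12 to 0.11), *NPAS2* of 0.07 (-0.37 to 0.52) and *RORA* of -0.18 (-0.55 to 0.19), and none passed. *NPAS2* turned to -0.24 without HG-OE replicate 3. *RORB*, with at most 1 count in a library, was below the filter.

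*DBP*, an activator at D-boxes and a direct target of CLOCK-BMAL1, was 12.5, 13.6 and 13.8 CPM in HG-NC and 11.7, 12.0 and 8.26 CPM in HG-OE. The groups did not overlap, but HG-OE replicates 1 and 2 lay just under the lowest control. *DBP* had a log2 fold change of -0.32 (SE 0.124, edgeR adjusted p = 0.0440). Without HG-OE replicate 3 it was -0.17 with an adjusted p of 0.133, and of 15 alternatives 7 kept the adjusted p of *DBP* under 0.05 (range 0.0252 to 0.191, edgeR, DESeq2 and limma). Both related factors fell. *TEF* went from 21.8, 21.5 and 23.5 CPM to 17.5, 15.4 and 14.5 CPM (log2 fold change -0.50, adjusted p = 2.01e-04, edgeR), and *HLF* from 5.51, 4.84 and 5.04 CPM to 3.76, 2.85 and 3.21 CPM (-0.65, adjusted p = 0.00233). Both passed in all 15 alternatives.

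The arms of the clock were set side by side. With the clock genes outside the 10 included, 8 of 11 repressors were lower in HG-OE, 1 was higher and 2 did not pass, with a median log2 fold change of -0.63. Of all genes tested, 25.9% were lower and 25.9% higher, 51.8% in all. The additional repressors were *BHLHE41*, *CIART* (CHRONO, a repressor of CLOCK-BMAL1) at -0.84 (adjusted p = 1.73e-05, edgeR) and *NFIL3* (E4BP4, which opposes the PAR bZIP factors at D-boxes) at -0.63 (adjusted p = 6.27e-06). In the activator arm, 2 of 5 tested genes were lower and 3 did not pass, a share not far from that of all genes, with a median of -0.18. All 3 PAR bZIP outputs were lower, with a median of -0.50. The mean log2 level of the 11 repressors, relative to the HG-NC mean, was -0.01, -0.02 and 0.02 in HG-NC and -0.45, -0.61 and -0.64 in HG-OE. That of the 5 activators was 0.07, -0.11 and 0.04 in HG-NC and -0.17, -0.24 and -0.07 in HG-OE. The repressor means did not overlap with the controls, and each lay below the activator mean of the same library. Without HG-OE replicate 3, 8 repressors were lower and 1 higher, 1 activator was lower and 2 outputs were lower, with medians of -0.57, -0.24 and -0.44. The difference between the arms as such was not tested.

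**Figure D3:**
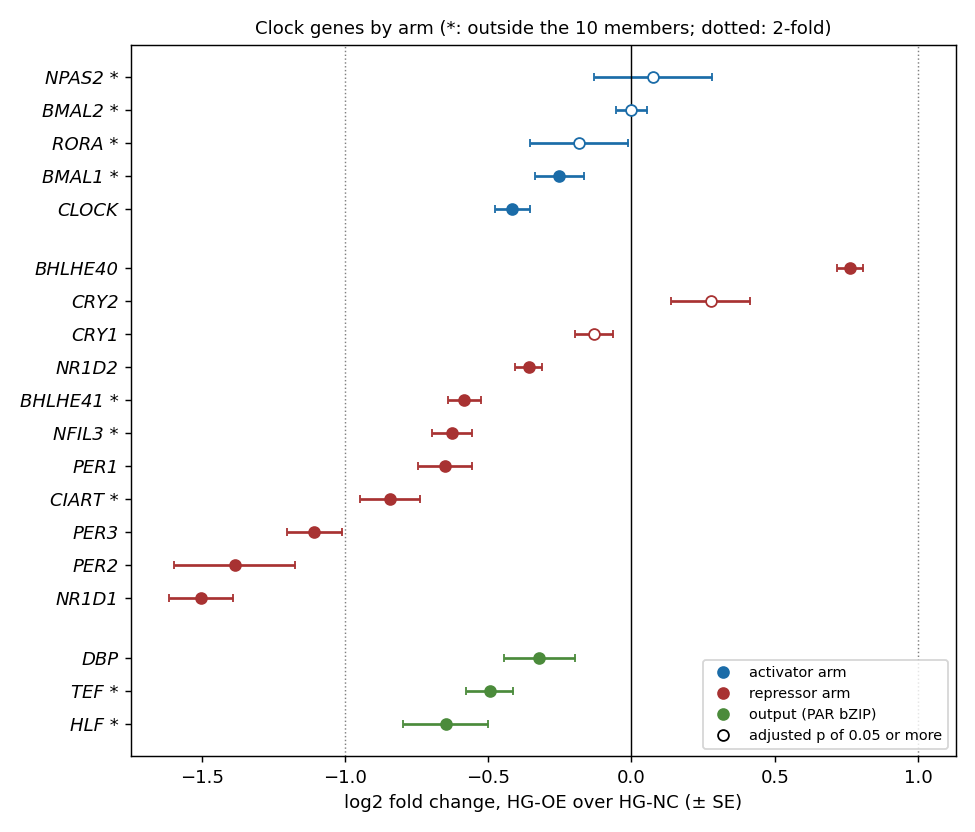
Log2 fold change of HG-OE over HG-NC (horizontal axis, with standard errors from edgeR) for the 19 clock genes tested, grouped into activator arm, repressor arm and outputs. Filled points have an adjusted p under 0.05 and dotted lines mark a 2-fold change, which *NR1D1*, *PER2* and *PER3* pass on the lower side and no gene on the higher side.

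The enzymes that set the stability of PER and CRY proteins moved both ways. Of 6 kinases and phosphatases, 2 were lower, *CSNK1D* (casein kinase 1 delta, which phosphorylates PER proteins) at -0.25 and *PPP1CB* at -0.32, and 3 were higher, *CSNK1A1* at 0.23, *GSK3B* at 0.17 and *PPP1CA* at 0.29 on the log2 scale. *CSNK1E* did not pass (-0.03). Since 51.8% of all genes passed the threshold, nothing particular to these groups or to those that follow is read from their counts. Of the genes of ubiquitin ligases, *FBXL21P* was lower (-0.35), *FBXW11* was higher (0.37) and *BTRC* did not pass (-0.10). Several of these values were close to those of the neighbouring genes within 10 Mb. The rises of *CSNK1A1* and *FBXW11* were no larger than the medians of their neighbours, 0.42 and 0.47. With such medians removed, *PPP1CB* was at -0.03, *CSNK1D* at -0.11 and *PPP1CA* at 0.09, and none of the 3 passed (adjusted p = 0.671, 0.0685 and 0.359, edgeR fit). In the same setting *CSNK1E* was at -0.31 (adjusted p = 8.82e-05, edgeR fit) and *GSK3B* at 0.31 (4.79e-05), and both passed. *CSNK1A1* reversed to -0.19 and passed (0.00123), and *FBXW11* reversed to -0.10 and did not (0.103). *FBXL21P* was at -0.64 there (7.25e-04). *PPP1CA* was at 0.16 without HG-OE replicate 3. *FBXL21P* lost its call in 7 of 15 alternatives. Of 4 partners of the PER-CRY complex, *WDR5* (-0.48) and *TIPIN* (-0.42) were lower, *NONO* was higher (0.15, and 0.09 with an adjusted p of 0.0512 after removal of the median of its neighbours, edgeR fit) and *TIMELESS* did not pass (-0.05).

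Genes known as clock outputs in other tissues moved both ways. *NOCT*, a strongly rhythmic gene that encodes nocturnin, fell 2-fold, from counts of 936, 1104 and 1068 to 606, 544 and 453 (log2 fold change -1.07, adjusted p = 3.70e-07, edgeR). It was under 2-fold without HG-OE replicate 3 (-0.96), with limma on log2(FPKM + 1) (-0.99) and after removal of the median of its neighbours (-0.75). *NAMPT*, the enzyme of NAD salvage, was lower by a log2 fold change of -0.77 and *KLF10* by one of -0.52. *PPARA* (0.67), *CDKN1A* (0.45) and *SCNN1A*, a subunit of the epithelial sodium channel, (0.36) were higher. The rise of *SCNN1A* was 0.23 without HG-OE replicate 3 (adjusted p = 0.102, edgeR) and lost its call in 9 of 15 alternatives, over which the adjusted p was 0.012 to 0.174. *WEE1* (-0.06) and *USP2* (-0.33, adjusted p = 0.0592) did not pass, and *SLC9A3*, the sodium-proton exchanger of the proximal tubule, with at most 14 counts in a library was below the filter. Since *PER1* is also a target of the glucocorticoid receptor, 5 such targets were listed. *SGK1* (-0.80, adjusted p = 8.57e-09), *FKBP5* (-0.44) and *TSC22D3* (-0.41) were lower, *KLF9* was higher (0.60, adjusted p = 0.00376, edgeR), and *ZBTB16* was below the filter. The median of the 4 glucocorticoid targets tested was -0.42, and that of all genes was 0.011. The neighbours of *SGK1* within 10 Mb had a median of -0.34. With such medians removed, *SGK1* was at -0.46, *FKBP5* at -0.52, *TSC22D3* at -0.43 and *KLF9* at 0.52.

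Levels between genes were compared per transcript length, in FPKM. In HG-NC the order from the highest mean level was *BHLHE40* (13.8 ± 0.505 FPKM, SD, n = 3), *NR1D2* (12.3 ± 0.238), *CRY1* (10.7 ± 0.0451), *NR1D1* (8.99 ± 0.804), *CLOCK* (2.62 ± 0.140), *PER1* (2.00 ± 0.0458), *PER3* (1.97 ± 0.0643), *DBP* (1.83 ± 0.1), *CRY2* (1.41 ± 0.0987) and *PER2* (0.633 ± 0.0513). *PER1* and *PER3*, and *PER3* and *DBP*, overlapped between libraries, and the other neighbours in this order did not. In HG-OE, *BHLHE40* was still the highest at 23.2 ± 0.525 FPKM and *PER2* the lowest at 0.237 ± 0.0777. *CRY1* (9.66 ± 1.05) and *NR1D2* (9.51 ± 0.476) overlapped there. *CLOCK* (1.94 ± 0.0950), *CRY2* (1.68 ± 0.380) and *DBP* (1.45 ± 0.280) each overlapped the next in the order, and *PER1* (1.26 ± 0.151) followed *DBP*. *NR1D1* went from 8.99 to 3.14 ± 0.551 FPKM, and *PER3* to 0.907 ± 0.111, below *CRY2* and *DBP*.

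**Figure D4:**
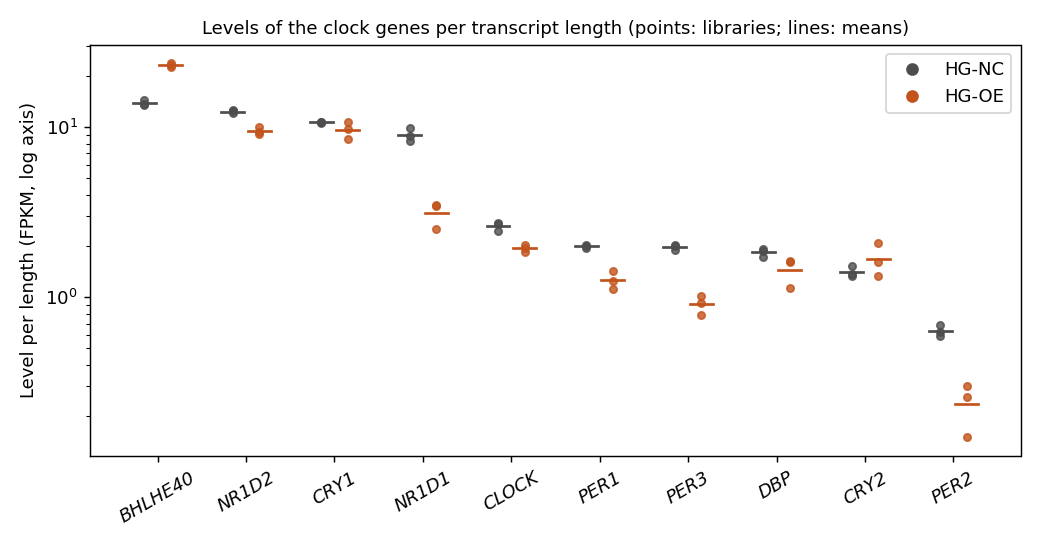
FPKM of the 10 clock genes (vertical log axis) in each HG-NC and HG-OE library, ordered by the HG-NC mean, with points for libraries and lines for means. The widest gaps between the groups are those of *NR1D1*, *PER2* and *PER3*, and *BHLHE40* stays the highest at 13.8 and 23.2 FPKM.

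To see how the surrounding genes moved, each member was compared with the median of the log2 fold changes of all other tested genes within 10 Mb. For *BHLHE40*, 77 such genes had a median of 0.53, and 0.24 of its 0.76 remained after that median was removed (adjusted p = 8.38e-04, edgeR fit, over 17105 genes). The p-values after removal use the standard error of the gene alone. They take the median as fixed and leave out the spread of the neighbours. For *NR1D2*, on the same chromosome, 70 neighbours had a median of 0.23, and its difference from them was -0.59. The remaining members lay in regions with medians between -0.25 (*NR1D1*) and 0.13 (*CRY1*). *NR1D1* was at -1.25, *PER2* at -1.23 and *PER3* at -0.96 after removal, the last of these just under 2-fold. *CLOCK* was at -0.27 (adjusted p = 0.00247). *CRY1* was at -0.26 and passed (adjusted p = 0.00511), while *DBP* at -0.27 did not (adjusted p = 0.0982). Among the outputs, *TEF* was at -0.81 and *HLF* at -0.40 (adjusted p = 0.0406) after removal. The cause of these regional medians was not tested.

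**Figure D5:**
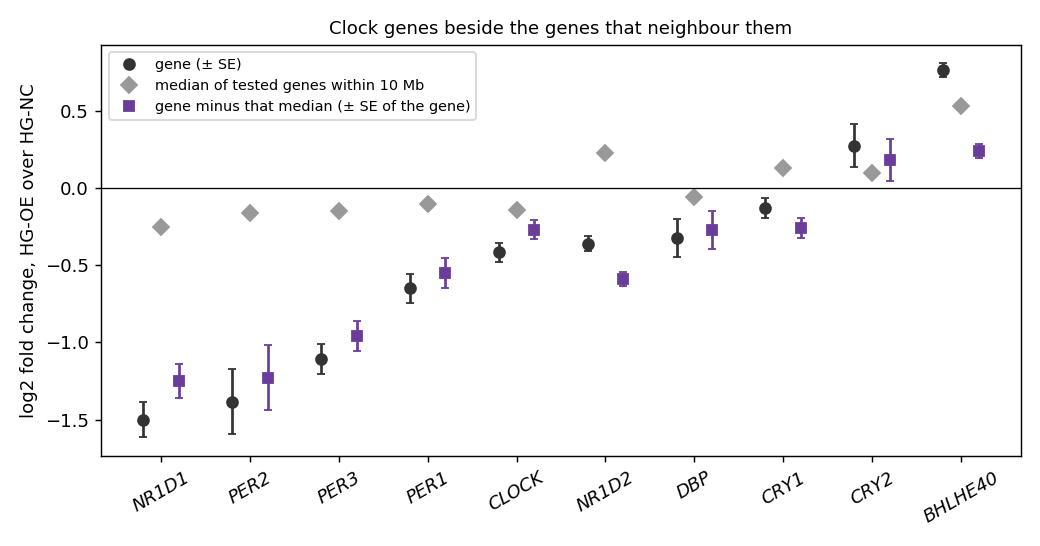
Log2 fold change of each clock gene (circles, with its standard error), the median of the other tested genes within 10 Mb (diamonds) and the gene minus that median (squares, with the standard error of the gene). *BHLHE40* is the gene whose value shrinks most, from 0.76 to 0.24, and *NR1D2* moves away from zero, from -0.36 to -0.59.

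Some members share their locus with other genes, and the strand setting of the counting is not stated, although the library kit keeps strand. The end of *NR1D1* overlaps that of *THRA* on the other strand by 1075 bases, and *THRA* had a log2 fold change of -0.13 (adjusted p = 0.227, edgeR). *BHLHE40-AS1*, antisense to *BHLHE40* over 978 bases, had counts of 16, 22 and 14 in HG-NC and 76, 67 and 51 in HG-OE (log2 fold change 1.77, adjusted p = 8.52e-05). Its counts are few beside the 2639 to 2759 counts of *BHLHE40* in HG-OE. *CLOCK* overlaps *TMEM165* over 25495 bases, and the latter had -0.04 (adjusted p = 0.460). *NR1D2* overlaps *NKIRAS1* (-0.09) and *DBP* overlaps *SPHK2* (-0.08), and neither neighbour passed. *PER1* shares 5691 bases of the same strand with ENSG00000263620, for which 148, 135 and 132 counts were listed in HG-NC and 127, 141 and 106 in HG-OE, and read pairs could be split between them.

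For the 3 members called at 2-fold, the protein-coding genes with the most similar profile over the 6 libraries were sought among 11562 genes with a mean of at least 100 counts, by the root mean square difference of centred log2 CPM. Nearest to *NR1D1* were *CPXM1* (0.108), *RND1* (0.125) and *EREG*, the growth factor epiregulin (0.130). *EREG* went from 232, 220 and 224 CPM to 89.8, 80.9 and 73.8 CPM. Nearest to *PER2* were *KRTAP2-3* (0.116), *CD274*, which encodes PD-L1 (0.174), and *TTYH2* (0.174). They too were lowest in HG-OE replicate 2, which is part of the profile they were picked by. Nearest to *PER3* were *LRRC49* (0.0357), *ICOSLG* (0.0401) and *IL6* (0.0410), and the cytokine *IL6* went from 1160, 1160 and 1140 CPM to 593, 540 and 491 CPM. With 6 libraries in 2 groups, these differences mostly measure a like fold change between the groups.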

How the data were processed

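RNA-seq libraries of HK-2 cells in high glucose were grouped by their labels as HG-NC (n = 3) and HG-OE (n = 3). The authors removed adapters and low-quality bases, used HISAT2 to align the reads to GRCh38, and deposited unnormalized whole-number counts per gene from uniquely mapped pairs. The authors also deposited FPKM values, computed from the counts and rounded. The methods name ComBat_seq for batch adjustment. Whether it touched these counts is not given in the sources used here, and no batch term was fitted. The mannitol libraries were not analysed here.

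Differences were tested with edgeR 4.0.16 in R 4.3.3 (TMM, filterByExpr, quasi-likelihood test, Benjamini-Hochberg adjustment over 17142 of 31831 genes). The biological coefficient of variation was 0.0683. The threshold was an adjusted p of 0.05 and, where stated, a 2-fold change as well, the thresholds of the study. Standard errors and 95% intervals of log2 fold changes come from that fit. Ratios of 2 genes were taken on log2 CPM (prior count 2) with exact two-sided permutation tests in SciPy 1.17.1, adjusted over 7 pairs. Totals were 25507595 to 29444841 counts per library, and a member had 35 counts or more in each, which limits the precision most for *PER2*. The steps were tested on simulated data.

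Positions come from GENCODE release 44 and promoters from RefSeq. The named genes are *HNRNPF*, the 10 members, the lists of clock regulators and targets, the 3 genes most like *NR1D1*, *PER2* and *PER3* each, and genes that overlap a member. The members and lists were chosen with earlier results of these data known. The alternatives were DESeq2 1.42.0 (size factors, Wald test), testing without the filter, a minimum of 10 counts in all libraries, a replicate block, each library left out, limma 3.58.1, and removal of the median of the genes within 10 Mb. For limma, log2(FPKM + 1) was used with and without a minimum mean of 0.1, and log2(FPKM + 0.1) only with that minimum. After that removal, p-values came from a t test on the gene's own standard error, with the median taken as fixed. For the ratios the alternatives were FPKM values and a prior count of 0.5. Some genes of these lists are not reported here.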

Additional observations from a re-analysis of the deposited data

How the results depend on the processing

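Over all settings tried, the log2 fold changes of *PER1*, *PER2*, *PER3*, *CLOCK*, *NR1D1*, *NR1D2* and *BHLHE40* kept their direction and an adjusted p under 0.05. Of 15 alternatives, the adjusted p rose above 0.05 in 9 for *SCNN1A*, 8 for *DBP*, 7 for *FBXL21P*, 4 each for *BMAL1* and *PPP1CA*, and 1 each for *CSNK1D*, *PPP1CB*, *NONO*, *KLF9* and *FBXW11*. Of the genes that did not pass in the main fit, *CRY1* passed in 2 and *CRY2*, *CSNK1E*, *WEE1* and *USP2* in 1 each. Members called at 2-fold numbered 3 in most fits, 2 after removal of the regional median, and 1 with limma on log2(FPKM + 1), with or without the filter on low values, a scale that shrinks the fold changes of scarce genes (*PER2* -0.40). The calls over all genes at 2-fold numbered 997, 1539 without a low-count filter, 617 with at least 10 counts in every library, 144 with limma on log2(FPKM + 1) and 138 with that without the filter. With each library left out in turn, these calls numbered 989 to 1124, members under the adjusted p 7 to 9, members called at 2-fold 3 in every fit, and the other clock genes 5 to 6. The changes of the ratios then ranged from 0.48 to 0.92 for *PER1* over *PER2*, 0.43 to 0.49 for *PER1* over *PER3*, -0.48 to -0.00 for *PER2* over *PER3*, -0.55 to -0.14 for *CRY1* over *CRY2*, -1.24 to -1.02 for *NR1D1* over *NR1D2*, 1.27 to 1.41 for *BHLHE40* over *BHLHE41* and -1.17 to -0.97 for *NR1D1* over *CLOCK*. Single genes changed sign in few settings, and most of these lay near zero. *BMAL2* was at 0.01 with at least 10 counts in every library, 0.00 with the replicate block, 0.05 after regional removal and -0.02 to 0.04 with libraries left out. *NPAS2* was at -0.24 to 0.25 and *CSNK1E* at -0.06 to 0.01 with libraries left out. *CSNK1A1* was at -0.19 and *FBXW11* at -0.10 after removal of the regional median. Samples of the same replicate number deviated from their group means with correlations of 0.055, 0.057 and 0.024 over 12365 genes, so that the numbers were not taken as pairs. With the replicate number as a block, 990 genes were called at 2-fold, and the counts for the members stayed at 8 and 3. With the block, the ratios changed by the same amounts, and the smallest p of the exact sign-flip test is 0.25. Depth limits *PER2* most, with 35 to 148 counts in a library. Except where a setting leaves out genes or shrinks values by construction, the cause was not tested.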
